A study of Mus musculus with 15 samples.

Results

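Bone morphogenetic proteins (BMPs) are secreted ligands of the TGF-beta superfamily, and the 9 genes described here are 4 of these ligands (Bmp2, Bmp4, Bmp6 and Bmp7), 2 secreted antagonists (Grem1 and Sostdc1) and 3 target genes of the pathway (Id1, Id2 and Id3). They were chosen by gene symbol from a table of 24421 symbols, all 9 were present, and all 9 were among the 16752 genes expressed highly enough to be tested. The table held RNA read counts from kidneys of wild-type mice, collected on day 14 after the operation. Unilateral ureteral obstruction, abbreviated UUO, ties off 1 ureter, and the kidney above it loses tubules and becomes fibrotic. A sham-operated group ate normal diet (sham, n = 3), an obstructed group ate the same diet (UUO, n = 6), and a further obstructed group ate food containing an Si-based agent (UUO_Si, n = 6). Strain, sex, age and the dose of the agent are not stated in the labels, and no sham group on the agent was part of the series, so UUO_Si differed from sham in both operation and diet. Beyond a replicate number and a sample code, the labels do not say whether the libraries of a group come from separate animals, so p values measure the spread between these samples.

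BMP ligands bind pairs of serine/threonine kinase receptors, which phosphorylate SMAD1, SMAD5 and SMAD9, and these enter the nucleus with SMAD4. The ID genes, which encode dominant-negative helix-loop-helix proteins without a DNA-binding region, are among the direct targets. Gremlin 1 and SOSTDC1 (also called USAG-1) bind ligands outside the cell and keep them from their receptors. In the adult kidney BMP7 is made by the distal nephron and podocytes and has been studied as a ligand that opposes fibrosis, SOSTDC1 is made by distal tubules, and gremlin 1 is little expressed in healthy kidney and appears in fibrotic kidney.

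All 9 genes are protein-coding. In GENCODE M21 on GRCm38, 4 of them lie on chromosome 2, namely Bmp2 (133552159 to 133562885), Bmp7 (172868012 to 172940321), Grem1 (113746164 to 113758646) and Id1 (152736251 to 152737410). Sostdc1 (36314139 to 36318452) and Id2 (25093799 to 25097140) are on chromosome 12, Bmp4 (46383520 to 46390669) on chromosome 14, Bmp6 (38345107 to 38500302) on chromosome 13 and Id3 (136143497 to 136145755) on chromosome 4. Exons of Bmp4 overlap those of the antisense gene Gm15217 and exons of Bmp6 those of Txndc5 on the opposite strand. As the strand setting of the counting was not given, reads from such overlaps could not be told apart.

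Promoter sequence was taken from RefSeq on GRCm38.p6, in which 5 of the 9 genes had an entry (Bmp4, Bmp6, Grem1, Id2 and Id3) and Bmp2, Bmp7, Sostdc1 and Id1 did not. Each window of 250 bases upstream of the start was searched on both strands for GGCGCC and GGAGCC (reverse complement GGCTCC), motifs bound by BMP-activated SMADs, which do not overlap each other in these windows. Bmp4, which fell, and Grem1, which rose most, are shown because they moved in opposite directions after obstruction and their windows hold no annotated exon. They are written 5′ to 3′ on the gene's strand, the minus strand for both, with the match in capitals, at chr14:46390670-46390919 for Bmp4 and chr2:113758649-113758898 for Grem1.
Bmp4: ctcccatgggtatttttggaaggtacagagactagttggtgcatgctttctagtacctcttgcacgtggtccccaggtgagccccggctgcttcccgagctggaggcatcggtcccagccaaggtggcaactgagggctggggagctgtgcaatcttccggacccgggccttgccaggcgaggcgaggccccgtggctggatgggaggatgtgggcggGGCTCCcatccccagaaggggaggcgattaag
Grem1: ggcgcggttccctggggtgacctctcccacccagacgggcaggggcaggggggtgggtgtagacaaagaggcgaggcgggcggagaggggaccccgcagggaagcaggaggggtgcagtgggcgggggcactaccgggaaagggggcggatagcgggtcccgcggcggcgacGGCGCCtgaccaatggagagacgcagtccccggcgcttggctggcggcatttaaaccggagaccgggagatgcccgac

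For the target genes Id2 and Id3, whose windows overlap their own annotated exons, only the 30 bases around each match are shown, again with the match in capitals. They lie at chr12:25096306-25096335 and chr12:25096163-25096192 (minus strand) for Id2 and at chr4:136143623-136143652 (plus strand) for Id3.
Id2, GGCGCC: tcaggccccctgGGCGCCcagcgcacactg
Id2, GGAGCC: gtatgatggacgGGAGCCcttccaccaatg
Id3, GGAGCC on the opposite strand: cctcgcatccgaGGCTCCgctgtcctcggc

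The match in Grem1 lay 73 to 78 bases upstream of the start, that in Bmp4 27 to 32 bases, those in Id2 226 to 231 and 83 to 88 bases, and that in Id3 182 to 187 bases. No match to either motif was found in the window of Bmp6, which also overlaps an annotated exon of its own gene. GGCGCC was present in 9.59% and GGAGCC in 26.0% of all 32851 promoters over the same length. The windows of these 5 genes were 62.8% to 72.0% G and C, against a median of 52.4% for all promoters. A match describes letters in the window and not a site of binding.

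Library totals were 5526642 to 8308121 counts (sham), 11151023 to 15422613 (UUO) and 7754724 to 11465936 (UUO_Si). In 4 libraries (replicate 3 of sham, 5 and 6 of UUO, and 6 of UUO_Si) 791 to 1264 of 1463 olfactory and vomeronasal receptor genes had counts, against 84 to 139 in the other 11, so results are also given without these 4 where they differ. Defining markers of kidney cells had counts in all groups. A marker on the loop of Henle and distal convoluted tubule list had none in 5 of 6 UUO and 5 of 6 UUO_Si libraries. All 8 proximal tubule markers and all 8 collecting duct markers fell after obstruction, while all 9 fibroblast and myofibroblast markers and all 7 macrophage markers rose. The summed level of the proximal tubule list was 12209 to 14589.9 CPM (sham), 676 to 1304 CPM (UUO) and 530 to 1534 CPM (UUO_Si), and that of the collecting duct list 826 to 862, 194 to 247 and 209 to 310 CPM. For the loop of Henle and distal convoluted tubule (6 of 7 fell) the sums were 8891 to 9862, 1493 to 1749 and 1414 to 2627 CPM. The fibroblast list summed to 416 to 613 CPM (sham), 5722 to 10887 CPM (UUO) and 4881 to 6829 CPM (UUO_Si), and the macrophage list to 111 to 165, 795 to 1072 and 723 to 1153 CPM. The podocyte list (1 of 6 rose and 2 fell) was at 802 to 930, 643 to 912 and 624.6 to 880 CPM, and the endothelial list (2 of 8 rose and 4 fell) at 768 to 864, 652 to 903 and 648 to 790 CPM. All 6 urothelium markers rose, with sums of 6.45 to 19.7, 75.5 to 209.7 and 77.5 to 152.9 CPM, and of 6 smooth muscle markers 3 rose and 1 fell (518 to 951, 642 to 1102 and 486 to 669 CPM). Of 7 T and B cell markers 4 rose (5.59 to 21.4, 28.5 to 55.3 and 34.6 to 55.1 CPM), and none of 5 erythroid markers passed (124 to 169, 53.3 to 274 and 36.4 to 120.6 CPM). A pair of alpha-globin genes on the erythroid list had the same summed counts and range in each group. The erythroid sums thus probably hold that measurement more than once. In bulk kidney RNA, fewer cells of a type and less RNA per cell cannot be told apart, and the part of these shifts in the values below was not tested.

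Obstruction alone, on the normal diet, was followed by setting UUO beside sham. Bmp2, Grem1 and Id3 rose, Bmp4, Bmp7, Sostdc1 and Id1 fell, and Bmp6 and Id2 did not pass the test. Thus 3 of 9 genes rose and 4 fell, where 27.5% of all tested genes rose and 26.4% fell (53.9% in either direction; edgeR's quasi-likelihood test, Benjamini-Hochberg adjusted p under 0.05). The same 7 genes had no overlap between the groups, against 46.9% of all tested genes.

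**Figure D1:**
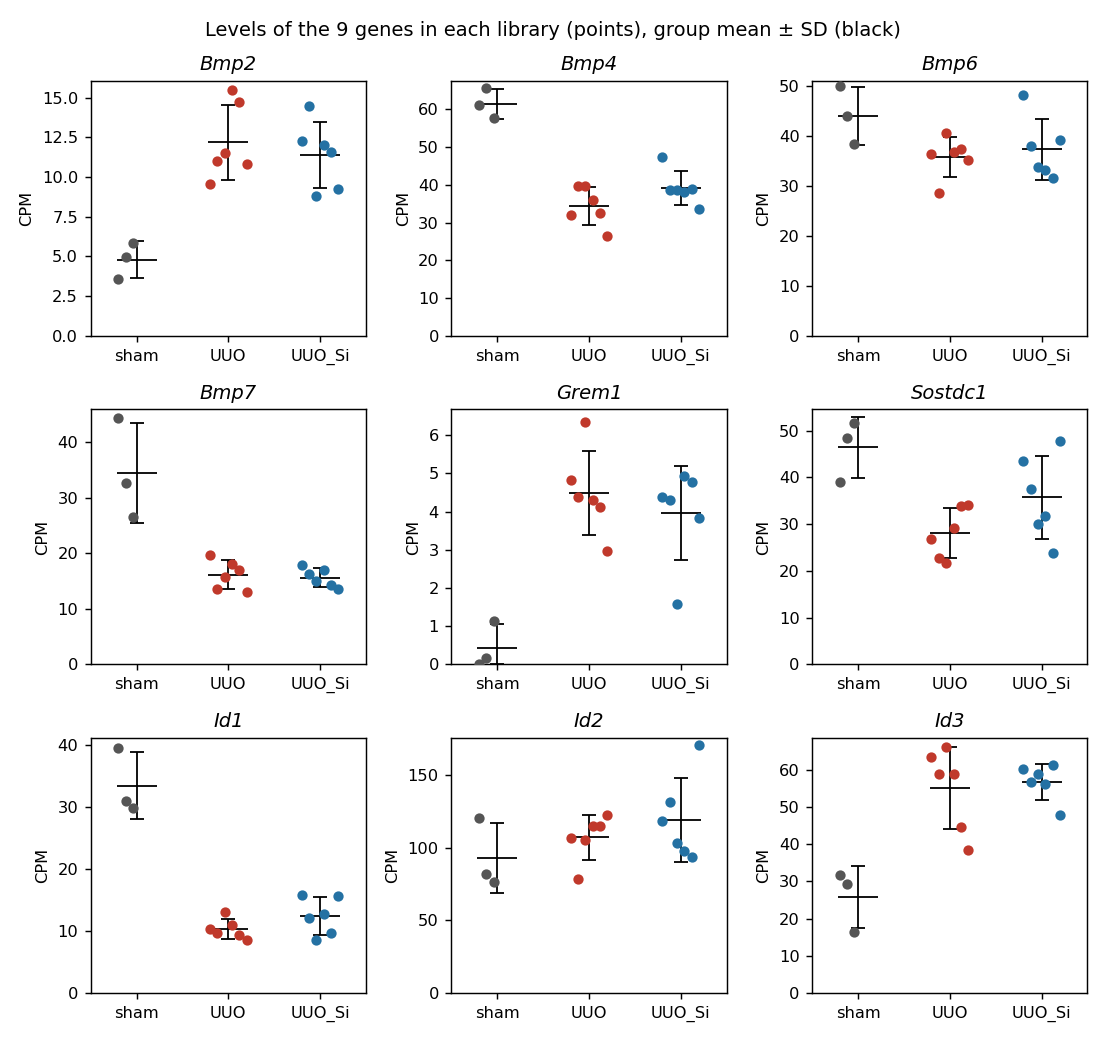
Levels of the 9 genes in counts per 1000000 (CPM, linear axes from 0) by group; points are libraries in replicate order from left to right, the wide black mark is the group mean and the bar its SD, cut at 0. All UUO libraries lie above all sham libraries for Bmp2, Grem1 and Id3 and below them for Bmp4, Bmp7, Sostdc1 and Id1, while UUO and UUO_Si overlap in every panel.

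Among the ligands, Bmp7 was at 44.3, 32.6 and 26.5 CPM (counts per 1000000 of the scaled library) in sham replicates 1 to 3. In UUO it was at 13.1 CPM in the lowest library, 16.4 at the median and 19.6 in the highest. The lowest sham library thus stood above the highest UUO library, although the sham libraries were spread widely. Bmp7 fell 2.14-fold, with a log2 fold change of -1.10 ± 0.16 (standard error; adjusted p = 1.66e-05, edgeR). All 15 deposited Bmp7 values carried fractions, taken as reads shared between features, although no exon of another gene of GENCODE M21 overlaps it.

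Bmp4, a ligand of the mesenchyme around the developing ureter, was at 61.2, 65.5 and 57.6 CPM in sham and at 26.5, 34.2 and 39.6 CPM (lowest, median, highest) in UUO. Its log2 fold change was -0.84 ± 0.12 (adjusted p = 2.15e-05, edgeR), a fitted 1.79-fold fall. In 6 of 6 UUO libraries Bmp4 lay below the lowest sham library. Bmp2 went the other way. It was at 3.58, 4.95 and 5.87 CPM in sham and at 9.56, 11.3 and 15.4 CPM in UUO, which do not overlap. It rose 2.56-fold (log2 fold change 1.36 ± 0.23, adjusted p = 7.06e-05, edgeR).

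Bmp6, known as the ligand that couples iron stores to hepcidin in liver, was at 49.9, 44.0 and 38.3 CPM in sham. Its UUO libraries lay at 28.5, 36.5 and 40.6 CPM (lowest, median, highest), so the groups overlapped. The log2 fold change of -0.30 ± 0.14 did not pass (adjusted p = 0.0735, edgeR), but it passed under 4 of 26 alternative settings with adjusted p down to 0.0277.

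Of the antagonists, Grem1 had 0, 1 and 6 counts in sham replicates 1 to 3 and 36 to 75 counts in each UUO library. These are 0, 0.160 and 1.14 CPM in sham and 2.98, 4.35 and 6.35 CPM (lowest, median, highest) in UUO, without overlap. The fitted log2 fold change was 3.49 ± 0.62, an 11.2-fold rise (adjusted p = 0.000130, edgeR). The size rests on sham replicate 3, which held 6 of the 7 sham counts: without it the log2 fold change was 5.69 (adjusted p = 1.29e-05, edgeR), and without the 4 receptor-gene libraries 5.83.

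Sostdc1 moved opposite to Grem1. It was at 39.1, 48.4 and 51.7 CPM in sham and at 21.8, 28.1 and 34.0 CPM in UUO, so the lowest sham library was above the highest UUO library. The fall was 1.65-fold (log2 fold change -0.72 ± 0.19, adjusted p = 0.00476, edgeR).

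The ID target genes did not move together. Id1 was at 39.5, 31.0 and 29.7 CPM in sham and at 8.60, 9.95 and 13.0 CPM (lowest, median, highest) in UUO, a 3.24-fold fall with no overlap (log2 fold change -1.70 ± 0.18, adjusted p = 5.56e-07, edgeR). Id3 was at 31.8, 29.2 and 16.3 CPM in sham and at 38.5, 59.0 and 66.1 CPM in UUO, a 2.12-fold rise (1.09 ± 0.20, adjusted p = 0.000179, edgeR). Id2 was at 120.5, 82.0 and 76.2 CPM in sham and at 78.5, 110.8 and 122.9 CPM in UUO, which overlap. Its log2 fold change of 0.21 ± 0.19, with a 95% interval of -0.20 to 0.61, did not pass (adjusted p = 0.379, edgeR).

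Levels of different genes were compared as CPM per kb of exon length in GENCODE M21, summed over all annotated exons. On this scale the 4 ligands together were at 48.5 ± 4.34 CPM per kb in sham (SD, n = 3) and 31.9 ± 2.84 in UUO (n = 6), ranges of 43.7 to 52.0 and 27.1 to 35.2 that do not overlap. Bmp4 made up the largest share in every group, 56.4% ± 3.58 of the 4 in sham and 47.8% ± 4.66 in UUO. The share of Bmp2 went from 2.84% ± 0.92 to 10.7% ± 1.77, with 3.78% in the highest sham library and 8.63% in the lowest UUO library. Bmp7 went from 17.5% ± 3.22 to 12.6% ± 1.78, where the highest UUO library (15.6%) reached above the lowest sham library (15.1%).

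The 3 ID genes together were at 81.3 ± 18.1 CPM per kb in sham and 83.7 ± 7.05 in UUO, with overlapping ranges of 66.0 to 101.3 and 73.5 to 91.5. Within this sum the makeup shifted. Id1 held 35.8% ± 2.73 in sham and 10.6% ± 1.05 in UUO, and Id3 held 17.5% ± 3.75 and 36.7% ± 6.58, neither with overlap. Id2 held 46.7% ± 2.54 and 52.7% ± 7.37, which overlap. In UUO replicates 5 and 6, which are among the 4 receptor-gene libraries, Id3 held 31.0% and 27.1%, against 36.8% to 44.8% in UUO replicates 1 to 4.

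**Figure D2:**
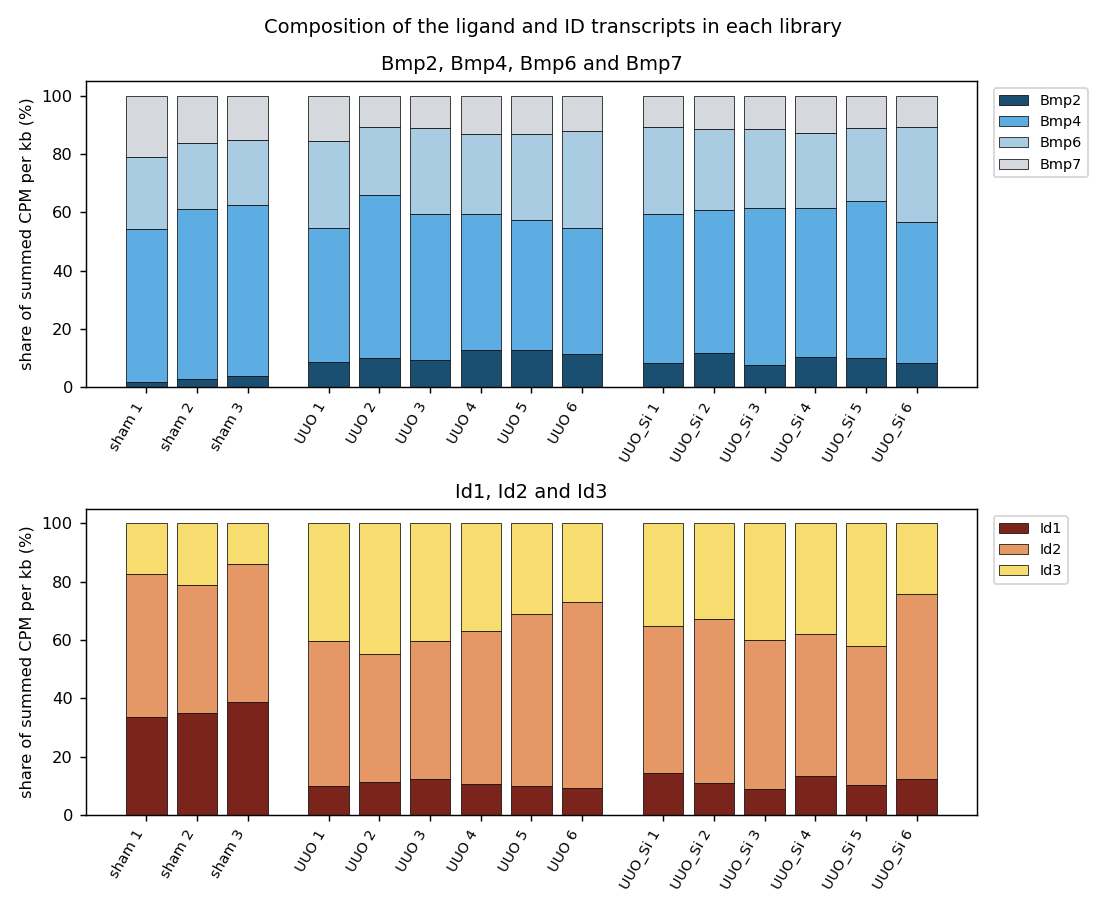
Share of each gene (%, stacked to 100%) in the summed CPM per kb of the 4 ligands (upper panel) and of the 3 ID genes (lower panel), 1 bar per library. Bmp2 (darkest blue) holds 1.94% to 3.78% in sham and 7.76% to 12.7% in obstructed libraries, and Id1 (dark red) falls from 33.7% to 38.9% in sham to 8.86% to 14.2% in obstructed libraries.

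The order of the levels per kb changed with obstruction. In sham it ran Id2 (38.1 CPM per kb), Id1 (28.8), Bmp4 (27.3), Sostdc1 (26.1), Id3 (14.4), Bmp6 (11.3), Bmp7 (8.58), Bmp2 (1.35) and Grem1 (0.104). Neighbours in this order overlapped in their library ranges except at the steps from Sostdc1 to Id3, from Bmp7 to Bmp2 and from Bmp2 to Grem1. In UUO it ran Id2 (44.0), Id3 (30.8), Sostdc1 (15.8), Bmp4 (15.3), Bmp6 (9.18), Id1 (8.89), Bmp7 (4.02), Bmp2 (3.43) and Grem1 (1.08). Here Id2 overlapped with Id3, Sostdc1 with Bmp4, Bmp6 with Id1 and Bmp7 with Bmp2, and the steps between these pairs did not overlap. Id1 thus moved from the second to the sixth place and Id3 from the fifth to the second, while Grem1 was lowest in both groups. In UUO_Si the order was Id2 (48.9), Id3 (31.7), Sostdc1 (20.05), Bmp4 (17.4), Id1 (10.7), Bmp6 (9.57), Bmp7 (3.89), Bmp2 (3.21) and Grem1 (0.956), where Id3 overlapped with Sostdc1, Sostdc1 with Bmp4, Id1 with Bmp6 and Bmp7 with Bmp2.

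Within groups, the coefficient of variation of the 9 genes was 11.2% to 24.5% in UUO and 8.49% to 31.0% in UUO_Si, widest for Grem1 in both. Counting error alone would give 2.68% to 13.3% in UUO and 3.06% to 17.7% in UUO_Si. For Bmp7 in UUO_Si the value was 10.6%, near the 8.23% of counting error. In sham, leaving aside Grem1, the range was 6.47% (Bmp4) to 32.3% (Id3), where sham replicate 3 held the lowest Id3 level.

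Receptors, other antagonists, SMADs and targets of the pathway were described with 5 lists drawn from general knowledge of BMP signalling, 59 genes of which 49 were tested. In UUO against sham 25 of the 49 rose and 8 fell, with a median log2 fold change of 0.56, where the median of all tested genes was -0.04. Of all tested genes 27.5% rose and 26.4% fell. By list, 8 of 10 receptors and co-receptors, 7 of 16 other antagonists and modulators and 5 of 11 SMADs and regulators rose. So did 3 of 6 other targets and 2 of 6 other ligands.

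Of 10 tested receptors and co-receptors 8 rose and 1 fell (median 0.64). Bmpr1a, a receptor that binds BMP2 and BMP4, went from 72.7 ± 6.25 CPM in sham to 152 ± 13.5 in UUO (log2 fold change 1.07 ± 0.10). Bmpr2, the kinase that activates it, went from 172 ± 10.6 to 326 ± 30.4 CPM (0.92 ± 0.10), and Acvr1 (ALK2), a receptor for BMP6 and BMP7, from 25.6 ± 1.19 to 38.9 ± 1.67 CPM (0.61 ± 0.08). The co-receptor Rgma rose by 1.48 ± 0.21. The gene that fell was Acvr2b (-1.13 ± 0.24), an activin and BMP receptor, and Acvr2a did not pass (0.13 ± 0.12).

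Of 16 other tested antagonists and extracellular modulators 7 rose and 3 fell (median 0.83). Nbl1 (DAN), an antagonist of the same cystine-knot family as Grem1 and Sostdc1, went from 7.33 ± 2.53 to 71.5 ± 14.2 CPM, a log2 fold change of 3.30 ± 0.25. Fstl1, a follistatin-like glycoprotein that can bind BMP4, went from 49.8 ± 8.37 to 465 ± 138 CPM (3.23 ± 0.26). Bmp1, which despite its name is a protease that cuts procollagen and the BMP antagonist chordin, rose by 2.19 ± 0.17, and Fstl3, which binds activins, by 1.98 ± 0.20. The 3 that fell were Chrdl1 (-1.48, with overlapping groups), Tll1 (-0.79) and Chrd (-0.51), the last of which encodes chordin. Noggin (Nog), the textbook antagonist, was at 1.05 CPM in sham and 0.63 CPM in UUO and did not pass.

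Of 6 other tested ligands Gdf10 (from 11.9 ± 1.91 to 32.2 ± 9.79 CPM) and Bmp3 (from 5.51 ± 2.79 to 14.98 ± 3.06 CPM) rose and none fell. Both are ligands held to dampen rather than activate BMP signalling. The other 4, each below 3 CPM on average, did not pass, and Bmp5, Bmp10, Gdf2 and Gdf5 were too low to be tested. Among 11 SMADs and regulators 5 rose and 3 fell (median 0.02). Smad1, a BMP-activated SMAD, went from 31.9 ± 4.25 to 64.0 ± 2.07 CPM (log2 fold change 1.001 ± 0.09). Smurf1, a ubiquitin ligase for SMAD1 and SMAD5, rose by 0.89 ± 0.11. Nedd4l, a further ubiquitin ligase (-1.26 ± 0.15), and Tob1, a repressor of BMP-activated SMADs (-1.13 ± 0.14), fell.

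The feedback inhibitor Smad6, itself a BMP target, was at 22.7 CPM in sham and 17.7 CPM in UUO and did not pass (-0.37 ± 0.19), although the groups did not overlap. It was lower in UUO_Si than in sham, at 15.3 CPM (-0.58 ± 0.19, adjusted p = 0.0184, edgeR). Of 6 other tested target genes 3 rose and 1 fell. Id4, the remaining ID gene, fell from 46.3 ± 6.33 to 23.4 ± 3.33 CPM (-0.98 ± 0.17), in the direction of Id1. Hes1 (0.85 ± 0.15), Atoh8 (0.89 ± 0.27) and Runx2 (0.85 ± 0.26, with overlapping groups) rose.

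**Figure D3:**
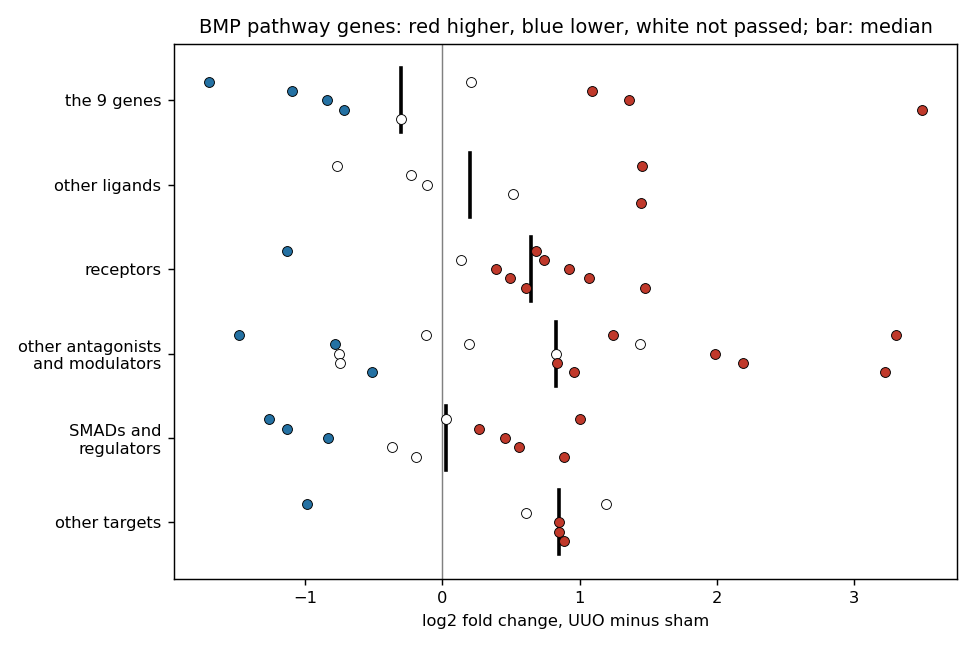
Log2 fold change of UUO against sham for each tested gene of the 9 and of the 5 pathway lists; red points rose, blue points fell, white points did not pass, the black bar is the list's median and the vertical spread only separates points. The 9 genes reach from -1.70 (Id1) to 3.49 (Grem1), and 8 of 10 receptors lie above 0 in red.

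The comparison of UUO_Si with UUO asked whether the agent changed these genes in the obstructed kidney. None of the 9 genes passed, none of 49 other pathway genes passed, and no gene of the table passed (0% of 16752; edgeR). Of the 9 genes 1 had an unadjusted p under 0.05, against 3.74% of all tested genes. The groups overlapped for all 9 genes, and 0.203% of all genes did not overlap. DESeq2 called 2 genes of the table, none of them among the 9 or the pathway lists.

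Sostdc1 had the smallest p of the 9. It was at 23.7, 34.7 and 47.7 CPM (lowest, median, highest) in UUO_Si and at 21.8, 28.1 and 34.0 CPM in UUO. The log2 difference was 0.35 ± 0.16 with a 95% interval of 0.01 to 0.69 (adjusted p = 0.999, edgeR). In 3 of 6 UUO_Si libraries Sostdc1 lay above every UUO library, and in the other 3 it lay within their range.

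Id1 was at 8.49, 12.4 and 15.8 CPM in UUO_Si, with a log2 difference from UUO of 0.27 (interval -0.06 to 0.60), and without the 4 receptor-gene libraries this was 0.10. Bmp4 was at 33.5, 38.6 and 47.3 CPM, a difference of 0.19 (-0.03 to 0.41). Id2 was at 93.6, 110.8 and 170.7 CPM, a difference of 0.15 (-0.17 to 0.48). The interval of each of these 3 genes includes 0, and adjusted p was 0.999 for each of them in edgeR.

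The remaining 5 genes were closer to 0 or less precisely measured. The log2 difference was -0.10 for Bmp2 (-0.43 to 0.23), 0.06 for Bmp6 (-0.17 to 0.30), -0.05 for Bmp7 (-0.33 to 0.24) and 0.04 for Id3 (-0.27 to 0.36). For these 4 the interval excludes a change of 0.5 in either direction on the log2 scale. Grem1 was at 1.58, 4.35 and 4.92 CPM in UUO_Si, with a difference of -0.18 and an interval of -0.87 to 0.51. Its lowest library, UUO_Si replicate 3, held 14 counts, and without it the difference was -0.018.

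Of the other pathway genes, those with the smallest p between the diets were Bmp1 (-0.41 ± 0.12), Bambi (-0.41 ± 0.14), a decoy receptor, Gdf10 (-0.53 ± 0.19), Hes1 (-0.29 ± 0.11) and Fstl1 (-0.36 ± 0.17). None of them passed (adjusted p = 0.999, edgeR). All 5 were lower in UUO_Si than in UUO, and all 5 had risen in UUO against sham, which shares the UUO libraries with this comparison. The median of the 49 genes was -0.05, beside 0.00 for all tested genes. Several marker lists were also lower in UUO_Si than in UUO, although no marker passed. The median log2 difference was -1.23 for erythroid markers (5 of 5 below 0, including the pair with the same counts) and -0.85 for urothelium (5 of 6). It was -0.72 for smooth muscle (6 of 6) and -0.56 for fibroblasts and myofibroblasts (9 of 9). The medians of the other 7 lists lay between -0.12 (macrophage) and 0.37 (loop of Henle and distal convoluted tubule). The UUO libraries were themselves split on the erythroid and fibroblast lists. Erythroid sums were 53.3 to 67.9 CPM in UUO replicates 1 to 3 and 201 to 274 CPM in replicates 4 to 6. UUO_Si was at 36.4 to 120.6 CPM. Fibroblast sums were 5722 to 6126 CPM and 9723 to 10887 CPM in the same sets of UUO replicates. UUO_Si, at 4881 to 6829 CPM, lay nearer to UUO replicates 1 to 3. The part of these differences in the pathway genes was not tested.

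UUO_Si against sham, which differs in operation and diet and shares the sham libraries with the first comparison, gave the same direction for all 9 genes. Bmp2 (1.26 ± 0.23), Grem1 (3.31 ± 0.62) and Id3 (1.13 ± 0.20) rose, and Bmp4 (-0.65 ± 0.13), Bmp7 (-1.14 ± 0.16) and Id1 (-1.43 ± 0.18) fell, so that 3 of 9 rose and 3 fell, where 27.2% and 25.5% of all tested genes did (52.7% together). These 6 had no overlap with sham, against 45.7% of all genes. Adjusted p in edgeR ranged from 4.92e-06 for Id1 to 0.000314 for Bmp4. The log2 fold change of Grem1 was 5.51 without sham replicate 3.

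Sostdc1 did not pass here (-0.37 ± 0.20, adjusted p = 0.121, edgeR), whereas it fell in UUO against sham. The difference between these results is the direct comparison of the diets given above, which did not pass. Without UUO_Si replicate 6, the library with the highest Sostdc1 level, the log2 fold change against sham was -0.48 and passed (adjusted p = 0.0405, edgeR). Id2 (0.36 ± 0.19, adjusted p = 0.128) and Bmp6 (-0.24 ± 0.14, adjusted p = 0.157) did not pass, and Id2 rose by 0.61 without sham replicate 1 (adjusted p = 0.0271, edgeR). Of the 49 other pathway genes 26 rose and 9 fell.

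**Figure D4:**
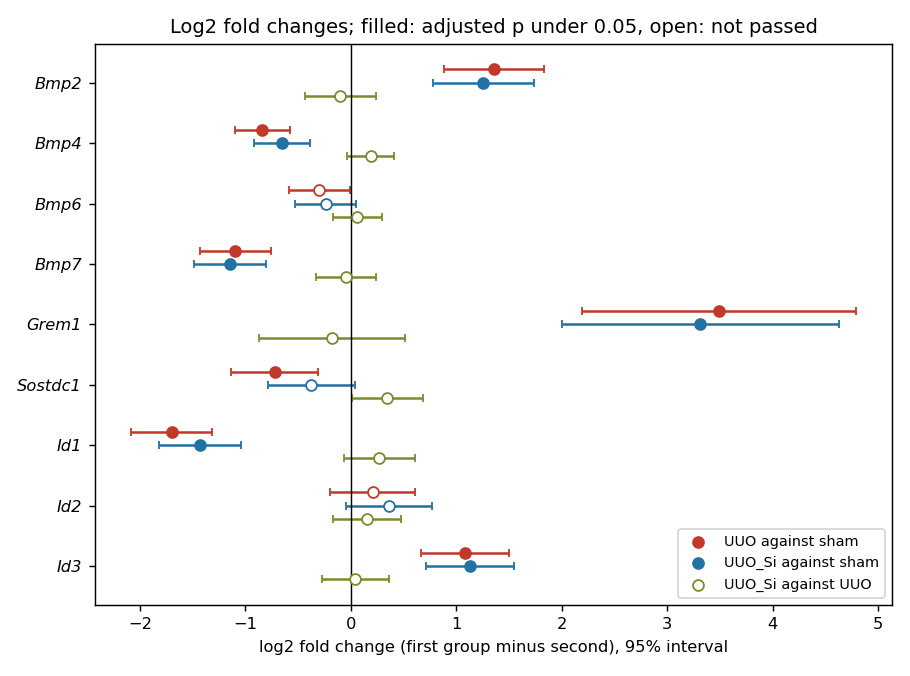
Log2 fold changes of the 9 genes with 95% intervals in UUO against sham (red), UUO_Si against sham (blue) and UUO_Si against UUO (green); filled points passed at an adjusted p under 0.05 and open points did not. The red and blue values lie on the same side of 0 for each gene, and all 9 green points are open and lie between -0.18 and 0.35.

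Across the 12 obstructed libraries, the genes most like each of the 9 were found by Pearson's r of log2 CPM over 12800 genes with at least 5 CPM. As the best of so many genes were taken, and all libraries share a protocol and differ in depth, r is a description only. Id2 was most like Fam107b (r = 0.971, Spearman's rho = 0.965, and r = 0.949 without the 2 libraries farthest from the median), Rragd (0.942) and Ndufv2 (0.939). Sostdc1 was most like Cpt2 (r = 0.958, rho = 0.958, and 0.923 without 2 libraries), Fam20b (0.956) and Wdr12 (0.949). Cpt2 encodes an enzyme of mitochondrial fatty acid import and Ndufv2 a subunit of respiratory complex I.

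Genes like Id3 included Ccar2 (r = 0.966, rho = 0.755, and 0.899 without 2 libraries) and Hivep1 (0.958). Among the obstructed libraries Id3 was lowest in UUO replicates 5 and 6 and UUO_Si replicate 6 (38.5 to 47.8 CPM), all receptor-gene libraries. The other obstructed libraries were at 56.2 to 66.1 CPM. The part of this split in the r values of Id3 was not tested. Id1 was most like Sh3bp4 (r = 0.875, rho = 0.902, and 0.800 without 2 libraries), Cdh16 (0.851), which encodes kidney-specific cadherin of tubules, and Mfsd7c (0.850). For Bmp4 these were Zfp963 (r = 0.941, rho = 0.902, and 0.850 without 2 libraries), Ring1 (0.924) and Epb4.1 (0.919), and for Bmp6 Pacsin2 (0.937, rho = 0.916, and 0.848), Pard6b (0.918) and Mrpl38 (0.895). For Bmp7 they were Peli2 (0.893, rho = 0.881, and 0.837), Triobp (0.868) and Ddx27 (0.863), and for Bmp2 Tulp4 (0.890, rho = 0.860, and 0.851), Fam217b (0.867) and Gjc1 (0.866). For Grem1 they were Zfp574 (0.961, rho = 0.804, and 0.909), Dip2c (0.905) and Cbx2 (0.886), and the last pair dropped to 0.679 and 0.696 without the 2 libraries. None of the 9 was among the 3 genes most like another of the 9. For Grem1 this was fixed beforehand, as it averaged below 5 CPM in UUO and in UUO_Si and was not among the genes searched.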

How the data were processed

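RNA of 15 kidney samples was measured. The deposited values are expected counts per gene symbol, as totals differ between libraries and 79.0% to 83.0% of values are whole; they were rounded to whole numbers. Per the labels, libraries came from RNAlater-stored tissue by the SMARTer stranded Pico method. The submitters' processing notes name mm10, TopHat2 2.1.1 and Cuffdiff 2.2.1 without their roles; strand setting and annotation are not given in the sources used here.

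Genes expressed at a minimum count of 10 (edgeR's filter) were kept, libraries were scaled with TMM, and all 15 entered a single quasi-likelihood fit (edgeR 4.0.16, R 4.3.3), adjusted over 16752 genes and called at 0.05. Standard errors are the log2 fold change over the square root of F, and intervals (95%) use the fit's degrees of freedom. CPM are counts per 1000000 of the TMM-scaled library, and log2 CPM used a prior count of 2. The steps were tested on simulated data. Genes named are the 9, up to 4 per pathway list by p, the 5 of smallest p between the diets, and the 3 most alike, of which 1 is not reported here. Members and lists were chosen with earlier results of these data known. List genes named beyond that rule (Acvr2a, Acvr2b, Chrdl1, Tll1, Chrd, Nog, Smad6 and those too low to test) and Gm15217 and Txndc5 were chosen after their values were seen. Hjv was read under its older symbol Hfe2. Alternatives were RLE and upper-quartile scaling, other filters, removal of Rn45s and haemoglobin, DESeq2 1.42.0, limma-voom (3.58.1), 2 groups only, a replicate block and left-out libraries. No pair of libraries was identical.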

Additional observations from a re-analysis of the deposited data

Results flagged for a closer look

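In 2 of the 18 sets of 6 libraries (9 genes in UUO and in UUO_Si) a single library was flagged by Dixon's rule, where chance gives about 1 in 20 such sets. The rule divides the gap to the next library by the range of the group. Grem1 was at 1.58 CPM in UUO_Si replicate 3, the lowest of its group, and the next library was at 3.83 CPM (gap over range 0.674). Id3 was at 47.8 CPM in UUO_Si replicate 6, the lowest of its group, and the next was at 56.2 CPM. Its gap over range of 0.626 only just passed the rule. UUO_Si replicate 6 is among the 4 libraries with counts in most olfactory and vomeronasal receptor genes.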

How the results depend on the processing

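Each of the 7 members that passed in UUO against sham kept its direction and its call under all alternatives in which it was tested (26, or 25 for Grem1, which the stricter filter removed), and so did the 6 that passed in UUO_Si against sham. The number of members called was 7 to 8, 0 and 5 to 7 in the 3 comparisons over all alternatives. The number of all genes called for UUO_Si against UUO was 0 in edgeR and limma-voom and 2 with DESeq2. With each library left out in turn it stayed at 0, and the count for UUO against sham was 7719 to 9302. Between the diets, small differences that did not pass changed sign: Id3 was at -0.019 with limma-voom, -0.0797 without the 4 receptor-gene libraries and -0.0797 without the libraries coded RM6 and RM7. With each library left out in turn, Id3 ranged from -0.044 to 0.103 (below 0 without UUO replicate 5 or 6), Bmp7 from -0.107 to 0.022 (above 0 without UUO replicate 1) and Bmp6 from -0.024 to 0.105 (below 0 without UUO_Si replicate 1). The cause was not tested. Replicate numbers are not stated to pair animals, and deviations of same-numbered libraries correlated at -0.39 to 0.75 between UUO_Si and UUO; with a replicate block 7, 0 and 6 members and 8433, 0 and 8268 genes were called. Grem1, with 7 counts in sham, is the member most limited by depth.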

Other observations

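The antisense gene Gm15217, whose exons overlap Bmp4, fell with it. It was at 9.19 ± 0.87 CPM in sham (SD, n = 3), 1.12 ± 0.51 CPM in UUO and 1.47 ± 0.17 CPM in UUO_Si (n = 6 each), a log2 fold change of -3.01 ± 0.31 in UUO against sham (adjusted p = 2.77e-07, edgeR). Bmp4 itself differed by -0.84. Deposited values of both genes carried fractions in the same libraries, such as sham replicate 3 (43.5 for Gm15217 and 303.5 for Bmp4). In UUO replicate 1 they were 10.5 and 400.5. Of the 15 Bmp4 values 6 were whole. Reads may thus be shared between these genes, and their falls may not be independent. Txndc5, which overlaps Bmp6 on the opposite strand, was at 121 ± 3.13 CPM in sham and 134 ± 29.5 CPM in UUO and did not pass (0.15 ± 0.18).

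Within UUO, the libraries lowest in Id3 were replicates 5 and 6 (44.6 and 38.5 CPM, against 59.0 to 66.1 CPM in the other 4), and within UUO_Si it was replicate 6 (47.8 CPM). The same UUO_Si library was highest in Id2 (170.7 CPM, against 93.6 to 131.5 CPM) and in Sostdc1 (47.7 CPM, against 23.7 to 43.5 CPM). All 3 libraries are among those with counts in most olfactory and vomeronasal receptor genes and carry the sample codes RM6 and RM7. The remaining library of that kind, sham replicate 3, does not carry these codes and was also lowest in Id3 of its group. It was at 16.3 CPM, against 31.8 and 29.2 CPM in sham replicates 1 and 2. The labels do not say what these codes stand for.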
